A study of Bubalus bubalis with 6 samples.

Results

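Small leucine-rich proteoglycans are secreted proteins of the extracellular matrix, built on a core of leucine-rich repeats that in many of them carries sugar chains. Their transcripts were followed in cultured buffalo (Bubalus bubalis) cells labelled as intramuscular adipocytes, the fat cells that lie between muscle fibres. The family was chosen by its difference in FPKM between the same 2 groups compared below, which was already known, and its members were then taken by gene name from 10 names: DCN, BGN, ASPN, ECM2, LUM, FMOD, PRELP, OMD, OGN and PODN. Of these, 7 had a row, with 1 gene model each, among the 19476 models of the table. No row carries the name LUM, OGN or ASPN, and these genes were not analysed here. The table's header names no unit, and the values are taken here to be FPKM, which divides the fragments of a model by its length and by the mapped fragments of the sample, so levels can be compared between genes. All 7 member models reached the minimum for testing of 1 FPKM in at least 3 of 6 samples, as did 11064 models in all.

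The lncFABP4 group was 3 samples transduced with the adenovirus Ad_lncFABP4, which carries a long non-coding RNA, and has the genotype label lncFABP4 overexpress. The EGFP group was 3 samples transduced with the adenovirus Ad_EGFP, which carries a green fluorescent protein, and has the genotype label WT. In both groups virus was followed by adipogenic inducing medium after 48 hours, and RNA was taken after 48 hours of induction, on day 4, so every sample had received a virus and the medium. No source used here gives the promoter in the vectors, the amount of virus, or the animals and their age. Wells were plated in triplicate and nothing says that they came from separate animals, so each p-value speaks for the scatter among these wells, part of which may be technical.

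Decorin, biglycan, fibromodulin and lumican bind fibrillar collagens and help to set the width and spacing of the fibrils. Several members also hold growth factors such as TGF-beta in the matrix, and decorin and biglycan can act on receptors at the cell surface once they are released. Fibroblasts and the stromal cells of fat are known sources of these proteins. By sequence, DCN, BGN, ASPN and ECM2 are placed in class I, LUM, FMOD, PRELP and OMD in class II, OGN in class III and PODN in class V. Decorin and biglycan carry chondroitin or dermatan sulfate, and several class II proteins carry keratan sulfate.

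Summed FPKM ran from 349458 to 360920 in the lncFABP4 samples and from 340165 to 353465 in the EGFP samples, and the number of reads behind a value is unknown. The symbol FABP4 is also part of the name of the transduced RNA. The FABP4 model stood at 6505, 10588 and 12003 FPKM in the lncFABP4 samples and at 154, 149 and 197 FPKM in the EGFP samples. Whether lncFABP4 fragments are counted on that model was not tested. Of 10 fat cell markers 8 were found, and their summed level was 6542 to 12043 FPKM in lncFABP4 samples and 174 to 224 FPKM in EGFP samples, most of it FABP4. Of 6 tested, FABP4, PPARG and LIPE were higher, LPL was lower, and CIDEC and GPD1 did not pass. The defining markers ADIPOQ, at means of 0.0186 FPKM in lncFABP4 and 0.0218 FPKM in EGFP samples, and CEBPA, at 0.143 FPKM in lncFABP4 and 0.171 FPKM in EGFP samples, were near 0 in both groups.

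Decorin, encoded by DCN, was the most abundant member in both groups, and its level in lncFABP4 samples was 52.7% of that in EGFP samples. The model held 2258, 2234 and 2199 FPKM in the lncFABP4 samples, against 4439.7, 4122 and 4144 FPKM in the EGFP samples. The lncFABP4 samples lay close together and all far below the lowest EGFP sample. On the log2(FPKM + 1) scale, used for every difference that follows as lncFABP4 minus EGFP, the change was -0.92 with a standard error (SE) of 0.06. DCN ranked 9th of all models by mean level in the lncFABP4 samples and 4th in the EGFP samples. In bulk samples, fewer cells of a type that makes a transcript and less of it per cell cannot be told apart.

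Biglycan, encoded by BGN and the closest relative of decorin, was the member whose groups overlapped. It stood at 659, 609.6 and 589.7 FPKM in the lncFABP4 samples and at 709.8, 592 and 763 FPKM in the EGFP samples. EGFP replicate 2 lay among the lncFABP4 samples, while the other two EGFP samples lay above all of them. The change was -0.15 (SE 0.10), and it ran from -0.25 without EGFP replicate 2 to -0.07 without EGFP replicate 3. A small change of BGN is therefore not shown to be absent.

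ECM2, a matrix protein with leucine-rich repeats, completes the class I genes found. Its model had 23.1, 26.9 and 24.1 FPKM in the lncFABP4 samples and 41.5, 44.2 and 33.7 FPKM in the EGFP samples. Every lncFABP4 sample was under every EGFP sample, although EGFP replicate 3 stood well below the other two. The change was -0.66 (SE 0.11).

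**Figure D1:**
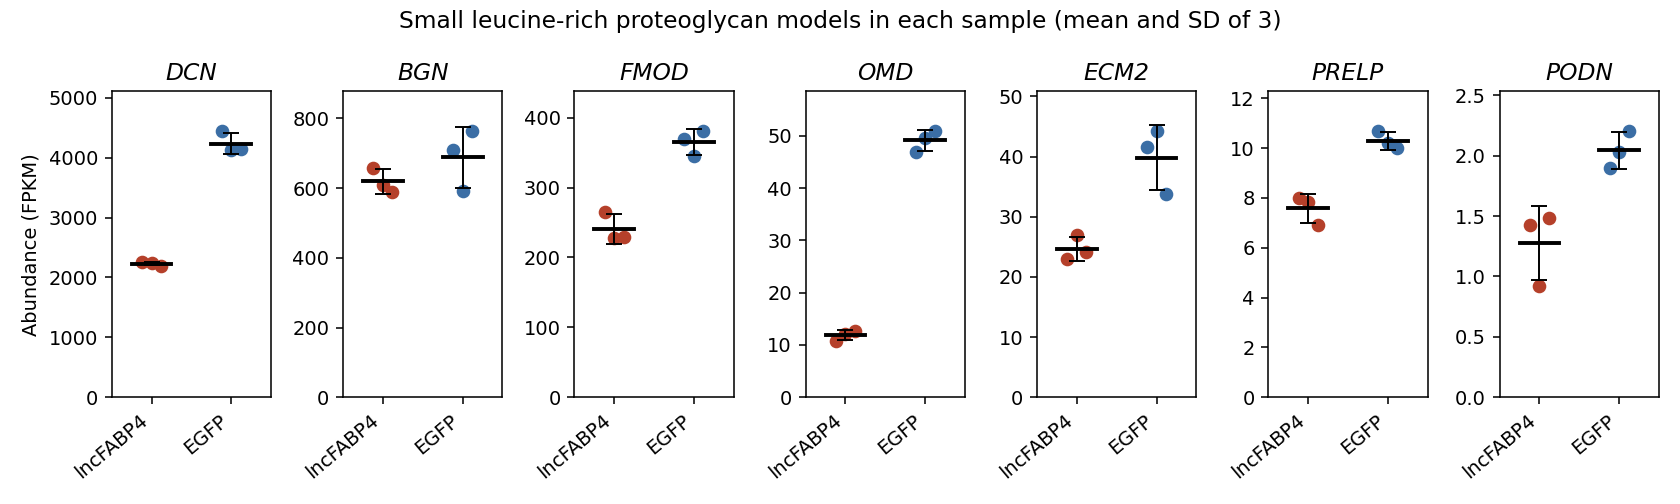
FPKM (vertical axes, each with its own range) of the 7 member models in the lncFABP4 samples (left in each panel) and the EGFP samples (right). Points are samples, with the mean and SD of 3 samples beside them; the groups overlap for BGN, and OMD shows the widest relative gap, with means of 11.9 FPKM in lncFABP4 and 49.1 FPKM in EGFP samples.

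Osteomodulin, encoded by OMD and first described in bone, had the largest change of the members. Its model had 10.8, 12.1 and 12.7 FPKM in the lncFABP4 samples, against 46.9, 49.6 and 50.9 FPKM in the EGFP samples. The means were 11.9 ± 0.944 FPKM in lncFABP4 and 49.1 ± 2.02 FPKM in EGFP samples (SD, n = 3 each), so the lncFABP4 level was 24.1% of the EGFP level. The change of -1.96 (SE 0.08) was the 6th lowest among the 11064 models tested. No other member came near this size.

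Fibromodulin, encoded by FMOD, is a collagen-binding class II protein that carries keratan sulfate. It was at 265, 229 and 229 FPKM in the lncFABP4 samples and at 369.7, 345 and 380.5 FPKM in the EGFP samples. The groups did not overlap, with lncFABP4 replicate 1 the nearest to the EGFP samples. The change was -0.60 (SE 0.08).

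PRELP, which binds heparan sulfate through a basic stretch at its start, was a low-level class II member. It had 7.98, 7.84 and 6.92 FPKM in the lncFABP4 samples and 10.7, 10.2 and 10.0 FPKM in the EGFP samples. All lncFABP4 samples were below all EGFP samples, by a smaller margin than for OMD. The change was -0.40 (SE 0.08), and it missed the threshold without lncFABP4 replicate 3, at -0.34.

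Podocan, the class V protein encoded by PODN and first found in kidney podocytes, lay near the minimum for testing. Its model had 1.43, 0.925 and 1.48 FPKM in the lncFABP4 samples and 1.90, 2.03 and 2.20 FPKM in the EGFP samples. The groups did not overlap, and lncFABP4 replicate 2 was the sample under 1 FPKM. The change was -0.43 (SE 0.12), and -0.66 and -0.70 with pseudocounts of 0.1 and 0.01, since adding 1 damps the change of a low gene. PODN missed the threshold when lncFABP4 replicate 2, lncFABP4 replicate 3 or any one of the 3 EGFP samples was left out, with changes of -0.31 to -0.49 over the single-sample omissions.

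Of the 7 member models, 6 passed the limma threshold as lower in lncFABP4 samples, 0 as higher, also at an unadjusted p under 0.05, and BGN did not pass. Among all models tested 26.7% passed, 10.2% as lower and 16.5% as higher, and every lncFABP4 sample was under every EGFP sample for 17.2% of models and for the same 6 members. Nothing is read from these member counts, because the members were chosen with this contrast known. The count of 6 members was 4 without lncFABP4 replicate 3, and it was 5 without lncFABP4 replicate 2 and without any one of the EGFP samples. The median change was -0.60 over the members (-1.96 to -0.15) and 0.05 over all models, and -0.00 over the 528 models with a mean of at least 100 FPKM. With the main scaling 1827 models were called higher and 1131 lower, with TMM scaling 1436 higher and 1439 lower, and the median of all models moved by no more than 0.05 in size under any scaling tried.

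**Figure D2:**
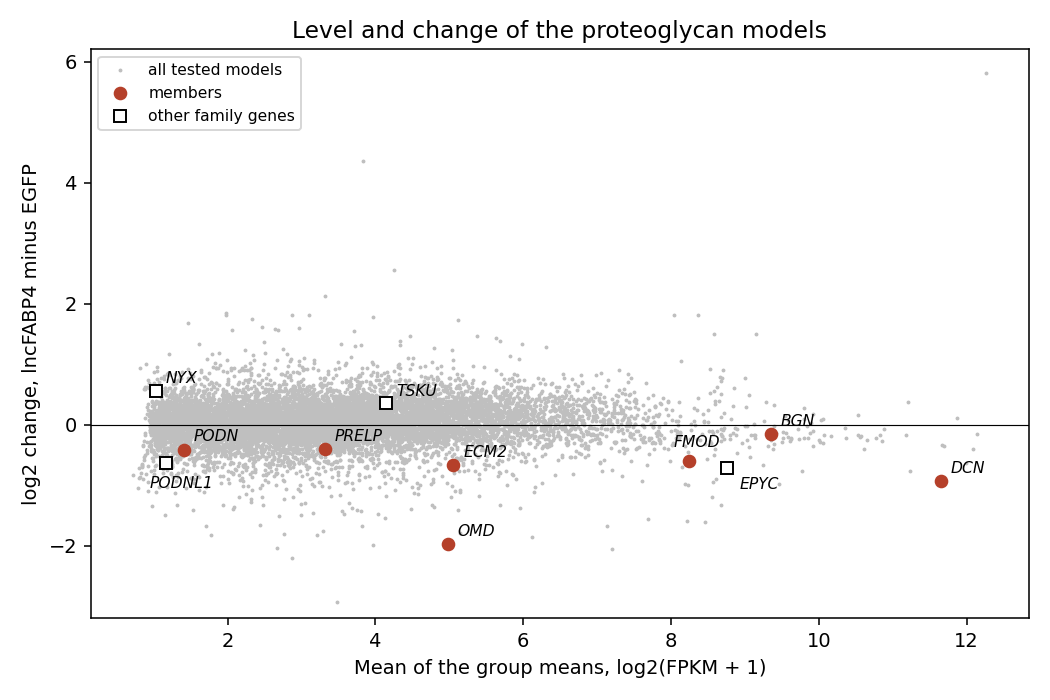
Change on the log2(FPKM + 1) scale, lncFABP4 minus EGFP (vertical axis), against the mean of the group means on the same scale (horizontal axis), for the 11064 models tested (grey dots), the 7 members (filled circles) and the 4 tested further family genes (open squares). The members lie at changes from -1.96 (OMD) to -0.15 (BGN), with PODN lowest and DCN highest in level.

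The members differed in level by orders of magnitude, and their order was almost the same in both groups. In lncFABP4 samples it ran DCN, BGN, FMOD, ECM2, OMD, PRELP and PODN, and in EGFP samples DCN, BGN, FMOD, OMD, ECM2, PRELP and PODN. No neighbours in either order overlapped over their 3 samples. ECM2 and OMD, whose models have consecutive numbers in the table, traded places: the ratio of ECM2 to OMD was 2.13, 2.23 and 1.90 in the lncFABP4 samples and 0.885, 0.891 and 0.663 in the EGFP samples. The spread between samples of a group was 1.31% (DCN) to 24.1% (PODN) of the mean in lncFABP4 samples and 3.36% (PRELP) to 13.6% (ECM2) in EGFP samples.

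Summed over the 7 models, the family held 3225, 3119 and 3063 FPKM in the lncFABP4 samples, against 5620.2, 5165 and 5384 FPKM in the EGFP samples, a ratio of 0.582. It made up 0.870% to 0.894% of all FPKM in lncFABP4 samples and 1.52% to 1.59% in EGFP samples. Most of that difference is decorin: without DCN the sums were 906 ± 54.5 FPKM in lncFABP4 and 1155 ± 101 FPKM in EGFP samples (SD, n = 3 each), a ratio of 0.784.

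The make-up of the sum shifted with it. Decorin was 71.1% ± 0.984 of the family in lncFABP4 samples and 78.6% ± 1.46 in EGFP samples (SD, n = 3 each). Biglycan was 19.7% ± 0.616 in lncFABP4 samples and 12.8% ± 1.36 in EGFP samples. The ratio of decorin to biglycan, which needs no scaling between samples, was 3.43, 3.66 and 3.73 in the lncFABP4 samples and 6.25, 6.96 and 5.43 in the EGFP samples, with no overlap. Fibromodulin over biglycan did not overlap either, at 0.375 to 0.402 in lncFABP4 samples and 0.499 to 0.583 in EGFP samples. Both ratios are made of the member values by which the family was chosen, so nothing is read from the lack of overlap. Ratios of decorin to 3 other matrix genes, chosen after their values were seen, did not overlap between the groups and differed by unlike amounts. Decorin over COL1A1 was 0.712 to 0.820 in lncFABP4 samples and 1.16 to 1.18 in EGFP samples. Decorin over COL3A1 was 1.23 to 1.27 in lncFABP4 samples and 1.37 to 1.44 in EGFP samples. Decorin over EPYC was 6.60 to 6.95 in lncFABP4 samples and 7.46 to 8.11 in EGFP samples.

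**Figure D3:**
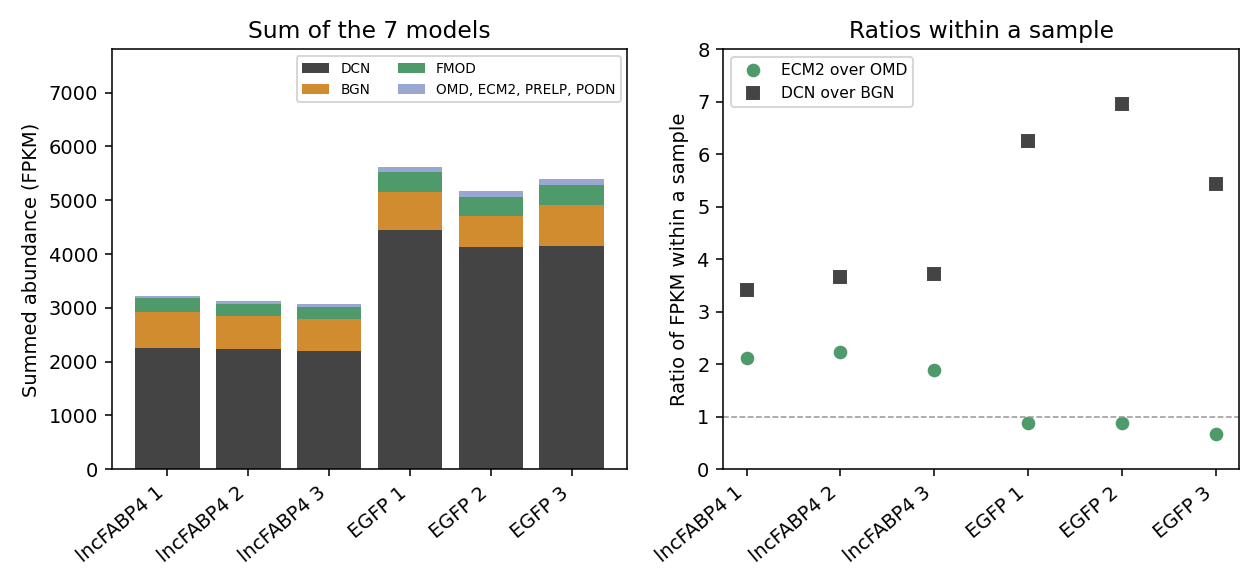
Left, summed FPKM of the member models in each sample, stacked by gene, lncFABP4 samples before EGFP samples; right, the ratios of DCN to BGN (squares) and ECM2 to OMD (circles) within each sample, with a dashed line at 1. The sums are 3063 to 3225 FPKM in lncFABP4 and 5165 to 5620.2 FPKM in EGFP samples, and ECM2 over OMD is above 1 in every lncFABP4 sample and below 1 in every EGFP sample.

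Several members lie in clusters that the family is known for. In the RefSeq order of the buffalo assembly NDDB_SH_1, used here for names and neighbours only, chromosome 4 carries DCN, LUM, KERA and EPYC in a row, and chromosome 3 carries OGN, OMD, ASPN and ECM2 in a row. In the table the EPYC and DCN models have the consecutive numbers 385 and 386 on chromosome 4, with none named LUM or KERA between them. The OMD and ECM2 models have the numbers 1807 and 1808 on chromosome 3, with none named ASPN between them. FMOD, PRELP and OPTC follow each other as 674, 675 and 676 on chromosome 5. Whether fragments of LUM, KERA, OGN or ASPN were counted on a neighbouring model was not tested.

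Named neighbours of the members did not share one direction. Only the nearest non-member model on each side was taken, and those without a name were left out. A second CENPP model, farther off with the number 1810, was not compared. EPYC, epiphycan, whose model number precedes that of DCN, is itself a small leucine-rich proteoglycan, known from growing cartilage. It held 325, 339 and 323 FPKM in the lncFABP4 samples and 551.2, 553 and 511 FPKM in the EGFP samples. Its groups lay well apart, and the change was -0.71 (SE 0.06, limma adjusted p = 0.000421). CENPP, a centromere protein whose model stands before OMD, was higher, at 2.46 ± 0.511 FPKM in lncFABP4 and 1.05 ± 0.399 FPKM in EGFP samples (SD, n = 3 each), a change of 0.77 (SE 0.17, limma adjusted p = 0.0130). HAUS7, a subunit of a spindle complex before BGN, was higher by 0.67 (SE 0.09, limma adjusted p = 0.00155). SLC1A7, a glutamate transporter before PODN, was lower, at 0.378 ± 0.212 FPKM in lncFABP4 and 1.22 ± 0.0386 FPKM in EGFP samples, a change of -0.70 (SE 0.13, limma adjusted p = 0.00579). SLC1A7 reached 1 FPKM only in EGFP samples, so it passed the filter through the group where it was higher. OPTC and ATP2B3 stayed under 1 FPKM in every sample and were not tested.

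Beyond the named members, 8 further genes of leucine-rich proteoglycans were listed, 5 were found and 4 were tested, of which 2 were higher and 2 lower. EPYC is described above. PODNL1, podocan-like 1, was at 0.755 ± 0.138 FPKM in lncFABP4 and 1.71 ± 0.118 FPKM in EGFP samples (SD, n = 3 each), a change of -0.63 (SE 0.10, limma adjusted p = 0.00399). NYX, nyctalopin, known from the retina, went the other way at 1.43 ± 0.183 FPKM in lncFABP4 and 0.650 ± 0.120 FPKM in EGFP samples, by 0.56 (SE 0.11, limma adjusted p = 0.00801). PODNL1 reached 1 FPKM only in EGFP samples and NYX only in lncFABP4 samples, so each passed the filter through the group where it was higher. TSKU, tsukushi, a secreted regulator of several growth factor pathways, had 18.8 ± 0.481 FPKM in lncFABP4 and 14.6 ± 1.49 FPKM in EGFP samples, a change of 0.35 (SE 0.09, limma adjusted p = 0.0205). The TSKU call was lost without lncFABP4 replicate 2, lncFABP4 replicate 3 or EGFP replicate 3, with adjusted p of 0.0522, 0.0766 and 0.0738, and the list then counted 1 higher gene.

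The enzymes that build the sugar chains mostly did not pass the test. Of 24 tested models for the linkage region and for chondroitin or dermatan sulfate, 1 was higher, 2 were lower and 21 did not pass, with a median change of -0.07. CSGALNACT2, which starts chondroitin chains, was at 5.30 ± 0.142 FPKM in lncFABP4 and 7.52 ± 0.967 FPKM in EGFP samples (limma adjusted p = 0.0161). PXYLP1, a phosphatase of the linkage xylose, fell to 7.44 ± 0.621 FPKM in lncFABP4 samples, against 9.29 ± 0.128 FPKM in EGFP samples (limma adjusted p = 0.0382), and DSEL, a dermatan sulfate epimerase, was the higher one at 28.7 ± 2.89 FPKM in lncFABP4 and 23.4 ± 0.688 FPKM in EGFP samples (limma adjusted p = 0.0447). Each of these calls was lost in some fits with fewer samples. PXYLP1 was lost when any one of the 6 samples was left out. CSGALNACT2 was lost without lncFABP4 replicate 3, although its change was -0.425 there and -0.429 in the main fit. DSEL was lost when any one sample other than lncFABP4 replicate 1 was left out, and with TMM, quantile or median-of-ratios scaling. The lower count was 0 without lncFABP4 replicate 3 and 1 without any other single sample. The higher count was 3 without lncFABP4 replicate 1, and 0 without lncFABP4 replicate 2 or any one EGFP sample.

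For keratan sulfate, the chain known from fibromodulin, 1 of 9 tested models was higher, 1 lower and 7 did not pass, with a median change of -0.12. Both that passed add sialic acid. ST3GAL2 was at 14.0 ± 4.61 FPKM in lncFABP4 and 6.61 ± 0.252 FPKM in EGFP samples (change 0.93, limma adjusted p = 0.0156), and ST3GAL3 at 14.6 ± 1.82 FPKM in lncFABP4 and 20.7 ± 3.76 FPKM in EGFP samples (change -0.47, limma adjusted p = 0.0366). ST3GAL2 was lost without lncFABP4 replicate 3 (adjusted p = 0.0530) or EGFP replicate 1 (0.0526), and ST3GAL3 without lncFABP4 replicate 2 (0.0734), lncFABP4 replicate 3 (0.124), EGFP replicate 1 (0.0772) or EGFP replicate 3 (0.104). The list of lysosomal enzymes that break the chains down also held CTSL, a protease. Of its 12 tested models 2 were lower, 0 higher, also at an unadjusted p under 0.05, and 10, CTSL among them, did not pass. The median change was -0.02. GLB1, the lysosomal beta-galactosidase, was at 145 ± 8.57 FPKM in lncFABP4 and 193 ± 1.84 FPKM in EGFP samples (change -0.41, limma adjusted p = 0.00411), and IDS, iduronate sulfatase, changed by -0.43 (limma adjusted p = 0.00527). The lower count was 4 without lncFABP4 replicate 1, and the higher count was 1 without EGFP replicate 1.

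Among proteases known to cut core proteins or to act with those that do, 5 of 11 tested models were lower, 1 higher and 5 did not pass, with a median change of -0.39. ADAMTS5, an aggrecanase, was at 18.1 ± 1.48 FPKM in lncFABP4 and 34.7 ± 1.24 FPKM in EGFP samples (SD, n = 3 each), a change of -0.90 (SE 0.08, limma adjusted p = 0.000419). MMP14, a membrane-bound metalloproteinase, was at 289 ± 4.54 FPKM in lncFABP4 and 429 ± 19.8 FPKM in EGFP samples, a change of -0.57 (SE 0.06, limma adjusted p = 0.000921). ADAMTS1 changed by -0.49 (SE 0.09, limma adjusted p = 0.00550). PCOLCE2, an enhancer of procollagen processing, was the higher one, at 103 ± 3.34 FPKM in lncFABP4 and 74.6 ± 7.28 FPKM in EGFP samples (limma adjusted p = 0.00551). The lower count was 3 without lncFABP4 replicate 2, lncFABP4 replicate 3 or EGFP replicate 3.

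Of 8 tested growth factors that the family is known to bind or whose signals it modulates, 5 were lower, 0 higher, also at an unadjusted p under 0.05, and 3 did not pass, with a median change of -0.43. IGF1, insulin-like growth factor 1, stood at 1.18 ± 0.0591 FPKM in lncFABP4 and 4.48 ± 0.185 FPKM in EGFP samples (SD, n = 3 each), a change of -1.33 (SE 0.09, limma adjusted p = 0.000143). BMP4, which commits stromal cells to the fat lineage in mouse cell culture, was at 2.79 ± 0.198 FPKM in lncFABP4 and 5.54 ± 0.589 FPKM in EGFP samples, a change of -0.78 (SE 0.10, limma adjusted p = 0.00162). BMP2 and TGFB3 changed by -0.41 and -0.44 (limma adjusted p = 0.0163 and 0.0249). Both were lost without lncFABP4 replicate 2, lncFABP4 replicate 3, EGFP replicate 1 or EGFP replicate 3, with adjusted p of 0.0533 to 0.0933. The lower count was 3 without lncFABP4 replicate 2 and 2 without any one of the other three. It was 1 with a minimum of 5 FPKM, at which IGF1, BMP4 and TGFB3 were no longer tested.

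Receptors linked to the family moved both ways, with 2 of 15 tested models higher, 2 lower and 11 not passing, and a median change of -0.11. CD14, a co-receptor that biglycan is known to use with Toll-like receptors in mouse macrophages, was at 27.5 ± 0.659 FPKM in lncFABP4 and 10.6 ± 2.35 FPKM in EGFP samples (change 1.31, SE 0.14, limma adjusted p = 0.000691). TGFBR3, betaglycan, a co-receptor of TGF-beta, was at 13.9 ± 0.358 FPKM in lncFABP4 and 25.7 ± 1.44 FPKM in EGFP samples (change -0.84, SE 0.07, limma adjusted p = 0.000419). MET, a receptor that decorin binds, changed by 0.70 (limma adjusted p = 0.0164), and was lost without lncFABP4 replicate 2, lncFABP4 replicate 3 or EGFP replicate 3 (0.0535, 0.0527 and 0.0528). LRP1, an endocytic receptor, changed by -0.27 (limma adjusted p = 0.0474), a call lost when any one sample other than lncFABP4 replicate 1 was left out, which gave a lower count of 1. With TMM, quantile or median-of-ratios scaling the lower count was 4. The higher count was 1 without lncFABP4 replicate 2, lncFABP4 replicate 3 or EGFP replicate 3.

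Of 12 tested models for collagens in or along fibrils and for type VI collagen, 6 were lower, 2 higher and 4 did not pass. The median change was -0.22, and the higher ones were COL5A3 and the type VI chain COL6A3. COL3A1, type III collagen, was at 1778 ± 53.6 FPKM in lncFABP4 and 3031 ± 45.1 FPKM in EGFP samples (SD, n = 3 each), a change of -0.77 (SE 0.06, limma adjusted p = 0.000287). COL5A3, a minor chain of type V collagen, was higher, at 8.70 ± 1.50 FPKM in lncFABP4 and 3.29 ± 0.415 FPKM in EGFP samples, a change of 1.17 (SE 0.13, limma adjusted p = 0.00101). COL14A1, a fibril-associated collagen, and COL5A2 changed by -0.36 and -0.28 (limma adjusted p = 0.00625 and 0.0129). COL5A2 was lost without lncFABP4 replicate 2 (0.0525) or lncFABP4 replicate 3 (0.0651), and its adjusted p was 0.293 with quantile scaling. The lower count was 3 without lncFABP4 replicate 2 and 2 without lncFABP4 replicate 3, and the higher count was 1 without lncFABP4 replicate 2, EGFP replicate 1 or EGFP replicate 3 and with TMM, quantile or median-of-ratios scaling.

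Of 20 tested models of proteoglycans outside the family, 3 were higher, 4 lower and 13 did not pass, with a median change of -0.18. The glypicans, heparan sulfate proteoglycans anchored to the membrane, supplied 3 of the lower ones. GPC1, by far the most abundant glypican, did not pass, at 266 ± 21.1 FPKM in lncFABP4 and 251 ± 27.6 FPKM in EGFP samples (change 0.08). GPC4 was at 7.38 ± 0.581 FPKM in lncFABP4 and 15.1 ± 1.23 FPKM in EGFP samples (change -0.94, SE 0.09, limma adjusted p = 0.000614). GPC6 changed by -0.77 (SE 0.12, limma adjusted p = 0.00366) and GPC2 by -0.64 (SE 0.12, limma adjusted p = 0.00721). SDC1, the membrane proteoglycan syndecan-1, was at 92.0 ± 1.19 FPKM in lncFABP4 and 73.9 ± 1.80 FPKM in EGFP samples (change 0.31, SE 0.06, limma adjusted p = 0.00823). The higher count was 1 without lncFABP4 replicate 2, lncFABP4 replicate 3, EGFP replicate 1 or EGFP replicate 3, and with models summed per gene name. Over the 9 lists together 29 of 115 tested models were lower, 12 higher and 74 did not pass, beside 10.2% lower and 16.5% higher among all models.

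**Figure D4:**
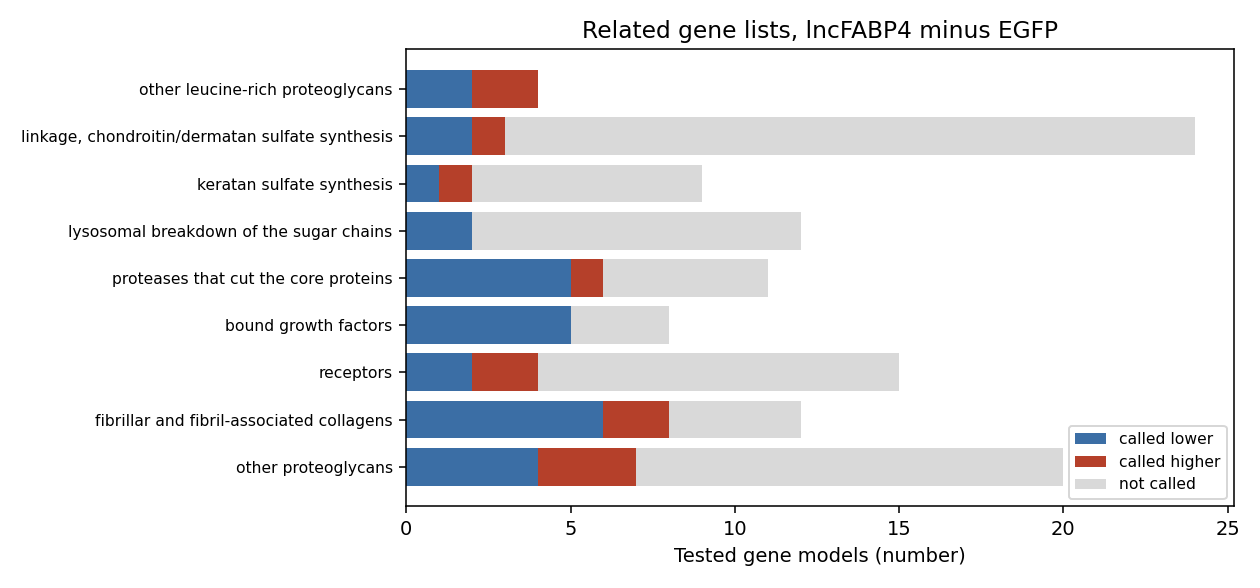
Number of tested gene models (horizontal axis) in each of the 9 lists of related genes (rows), split into those called lower, called higher and not called in lncFABP4 against EGFP samples. The collagen row has 6 lower and 2 higher of 12, and the growth factor and lysosomal rows have 0 higher.

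Marker lists of other cell types differed between the groups in both directions. In the fat cell list 3 of 6 tested models were higher and 1 lower. PPARG, the master regulator of fat cell formation, was at 25.2 ± 1.77 FPKM in lncFABP4 and 12.2 ± 0.527 FPKM in EGFP samples (SD, n = 3 each, limma adjusted p = 0.000321). LIPE, hormone-sensitive lipase, was at 5.57 ± 1.08 FPKM in lncFABP4 and 3.08 ± 0.462 FPKM in EGFP samples (limma adjusted p = 0.0109). LPL, lipoprotein lipase, was lower, at 0.999 ± 0.160 FPKM in lncFABP4 and 2.78 ± 0.710 FPKM in EGFP samples (limma adjusted p = 0.00349). Of 10 fibroblast and mesenchymal markers all 10 were found and 7 tested, of which 5 were lower, PDGFRA, DPP4, THY1, MFAP5 and COL1A1, and 0 higher, also at an unadjusted p under 0.05, while PDGFRB and COL1A2 did not pass. Their summed level was 7207 to 7825 FPKM in lncFABP4 samples and 8622 to 9140 FPKM in EGFP samples, most of it COL1A1 and COL1A2. CD34 and TCF21 were under 1 FPKM in all samples. Of 6 bone markers 4 were found and 3 tested, and 2 were lower, ALPL and IBSP, while RUNX2 did not pass. The sums were 29.8 to 33.8 FPKM in lncFABP4 and 39.3 to 43.2 FPKM in EGFP samples, most of it RUNX2, with DMP1 near 0. IBSP reached 1 FPKM only in EGFP samples, so it passed the filter through the group where it was higher. Pericyte and smooth muscle markers, 5 of 6 found, summed to 25.0 to 36.5 FPKM in lncFABP4 and 64.5 to 68.6 FPKM in EGFP samples, with 1 model of CSPG4 higher, KCNJ8 and ABCC9 lower and 3 models not passing of 6 tested. The part of these differences in the changes of the members was not tested. Tendon and cartilage markers, 6 of 8 found, summed to 3.65 to 3.95 FPKM in lncFABP4 and 2.80 to 4.26 FPKM in EGFP samples, with ACAN and COL2A1 under 1 FPKM in all samples. Muscle (6 of 12 found), endothelial (7 of 8), immune (6 of 8) and epithelial markers (3 of 6) summed to no more than 10.8 FPKM in any sample. PECAM1 and PTPRC were near 0. Most of the immune sum was CD68, at means of 8.88 FPKM in lncFABP4 and 9.46 FPKM in EGFP samples. VWF was higher, at 4.12 FPKM in lncFABP4 and 3.05 FPKM in EGFP samples (limma adjusted p = 0.0218). DES was lower, at 1.60 FPKM in lncFABP4 and 3.03 FPKM in EGFP samples (limma adjusted p = 0.00907). ERG and CD68 did not pass.

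The models most like DCN and OMD over the 6 samples were sought among tested non-member models with a name. The measure was the root mean square difference between log2(FPKM + 1) profiles, each centred on its own mean. For DCN these were SLIT3, a guidance ligand (0.0559), GPC4 (0.0636) and ENPP1, a membrane enzyme that makes pyrophosphate (0.0638). SLIT3 had 8.42, 7.32 and 7.34 FPKM in the lncFABP4 samples and 17.0, 15.5 and 15.4 FPKM in the EGFP samples. For OMD they were SKAP1, a signalling adaptor (0.156), NRCAM, a cell adhesion molecule (0.176), and POSTN, the matrix protein periostin (0.186). SKAP1 reached 1 FPKM only in EGFP samples. POSTN had 158, 186 and 177 FPKM in the lncFABP4 samples and 505, 523 and 559 FPKM in the EGFP samples. The nearest other member was farther off in both cases, FMOD for DCN (0.179) and DCN for OMD (0.530). Nothing is read from this, because the nearest non-member models were picked from far more candidates than the few other members. The measure includes the difference between the groups, and it rests on 6 samples.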

How the data were processed

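Polyadenylated RNA from 6 samples was sequenced on a DNBSEQ machine, per the labels' protocols. The authors deposited 1 table of values per gene model, read here as FPKM, normalized by the authors to model length and mapped fragments. The header names no unit, and the reading rests on decimals, unequal column totals and the use of StringTie. The submitters' processing notes list HISAT2 and StringTie, with no version or role. No source used here gives the genome build or annotation.

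All 6 value columns were used. Differences were fitted in R 4.3.3 with limma 3.58.1 (mean-variance trend, two-sided, group as the only term) on log2(FPKM + 1), over the 11064 models that reached 1 FPKM in 3 or more samples, with Benjamini-Hochberg adjustment over all of them and a threshold of 0.05. No p-value is given for members. The members and gene lists were chosen with earlier results of these data known. Named were all member models, up to 4 called models per list with the smallest adjusted p, and FABP4. For DCN and for OMD, the 3 most alike non-member models with a name were added. The nearest non-member model on each side of a member was also named, where it has a name. Marker genes, CTSL, COL6A3, GPC1 and the ratios to other matrix genes were named beside these after their values were seen. Ratios between members use the values by which the family was chosen. Lists were matched by gene name (132 of 148 pathway genes found), and 4570 of 19476 models have no name. Alternatives were other scalings, pseudocounts, filters, a robust variance model, a replicate block, sums per gene name and leaving out samples. Correlations of same-numbered samples did not show pairing. The most frequent ratio between low values, held by 2.50% to 3.23% of low models, put depth at 0.924 to 0.950 in lncFABP4 and 0.981 to 1.01 in EGFP samples relative to EGFP replicate 1, too few to recover reads, and precision comes from the spread between samples alone.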

Additional observations from a re-analysis of the deposited data

How the results depend on the processing

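Member changes kept their sign in all settings tried. DCN, ECM2 and OMD were called in all 20 alternatives, FMOD in 19, PRELP in 17, PODN in 10 of the 19 that tested it, and BGN in 0 of 20 (-0.25 to -0.02). Leaving out samples moved counts most, with fewer samples in the fit: 567 to 3468 models called (232 to 1446 lower, 335 to 2022 higher), 3 to 6 members lower, and in the lists together 9 to 32 lower and 3 to 15 higher. The lowest counts came without replicate 3 of both groups, when FMOD, PRELP and PODN were not called. Single samples whose omission cut the 2958 calls by over 1.5 times were lncFABP4 replicate 2 (1815), lncFABP4 replicate 3 (1673), EGFP replicate 1 (1948) and EGFP replicate 3 (1835); without replicate 2 of both groups it was 1406. With no filter 7 list models were called higher, against 12, and the cause was not tested. With quantile scaling the summed member ratio was 0.629, against 0.582, and the cause was not tested. The split of higher and lower calls was 1461 and 1413 with quantile scaling. With a replicate block 3336 models were called (2061 higher, 1275 lower) and 6 members lower. Deviations of same-numbered samples from their group means correlated at 0.181, 0.291 and -0.0774, and lncFABP4 replicate 1 was closest to EGFP replicate 3 (0.199). Pairing by number is not shown, and with 3 samples per group these correlations cannot exclude it. Without read counts, the precision of low models such as PODN cannot be set.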
